A study of Mus musculus with 12 samples.

Results

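Oxygen sensing by the hypoxia-inducible factors (HIFs) was followed through 10 genes of the newborn mouse lung: the α subunits Hif1a, Epas1 and Hif3a, the prolyl hydroxylases Egln1, Egln2 and Egln3, the ubiquitin ligase subunit Vhl, the asparaginyl hydroxylase Hif1an, and the target genes Bnip3 and Ankrd37. They were chosen by their place in the pathway, with earlier results of these data known. They were taken by symbol from a table of raw read counts that holds 23478 genes. All 10 were in the table, and all 10 passed the filter on low counts that left 15761 genes for testing. The 12 libraries came from whole lungs of neonatal C57/Bl6 mice from which the lavage fluid had been removed. Each pup received an intraperitoneal injection on day 0, either aurothioglucose at 25 mg/kg or saline, and then breathed either more than 95% oxygen for 72 h or room air. Aurothioglucose is a gold compound that inhibits thioredoxin reductase. The 4 groups of 3 libraries are called SAL/RA (saline, room air), ATG/RA (aurothioglucose, room air), SAL/HYP (saline, hyperoxia) and ATG/HYP (aurothioglucose, hyperoxia). No genotype was altered, and room air after saline is the reference. The labels do not say how litters or animals map to libraries, so p-values measure the spread between these samples, part of which may be technical.

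In oxygenated cells the EGLN enzymes hydroxylate prolines of the HIF α subunits, VHL binds the hydroxylated protein, and the protein is destroyed. When oxygen is scarce the α subunits persist, pair with ARNT and switch on genes of glycolysis, blood vessel growth and mitophagy, among them Egln3 and Egln1 themselves, which closes a feedback loop. Because this control acts largely on protein, the transcript levels given here show how much of each component's RNA was present and not the activity of the pathway. In the lung EPAS1, also called HIF-2α, is known from endothelial and alveolar type 2 cells and is needed for normal development.

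Total counts ran from 14331749 to 20486735 per library, and the lung markers were present in every library. Summed markers of alveolar type 2 cells (9 genes) ran from 12974 to 17172 CPM (counts scaled to a common library size with edgeR's TMM factors), with none of the 9 at 0. Several libraries also carried muscle or thymocyte transcripts. The summed CPM of 8 cardiomyocyte markers was 3148 in SAL/HYP 2 and 6967 in ATG/HYP 2, against 425 to 978 in the other libraries, and the summed CPM of 7 skeletal muscle markers was 364 in SAL/HYP 1, against 20.6 to 68.3 elsewhere. For 6 thymocyte markers the summed CPM was 63.9 in SAL/HYP 2 and 26.3 in SAL/HYP 3, against 2.19 to 12.5 elsewhere. The part of thymocyte RNA in the results was not tested. Sex, read from Xist and Y-linked genes, was also uneven: SAL/RA held 3 males, ATG/RA 1, SAL/HYP 1 and ATG/HYP 2.

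Every call among the 10 genes came from the comparisons of oxygen. Differences are log2 fold changes with their standard error (SE), from edgeR's quasi-likelihood test (edgeR QL) with p-values adjusted by Benjamini-Hochberg over all tested genes and a threshold of 0.05. Averaged over both injections, 3 of the 10 genes were higher in hyperoxia (Hif1a, Egln2 and Hif1an) and 1 was lower (Egln3), while 6 did not pass. Over all tested genes 11.0% passed as higher and 11.3% as lower in that comparison. After saline alone, 0 of the 10 passed as higher and 1, Egln3, as lower, where 4.70% and 4.50% of all tested genes did. After aurothioglucose, again 0 passed as higher and Egln3 alone as lower, beside 5.41% and 6.25% of all tested genes. The median difference of the 10 genes was 0.18 after saline, 0.06 after aurothioglucose and 0.13 averaged, and the median of all tested genes ran from -0.00284 to 0.000788. In the single comparisons a count of 1 in 10 is near the background.

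**Figure D1:**
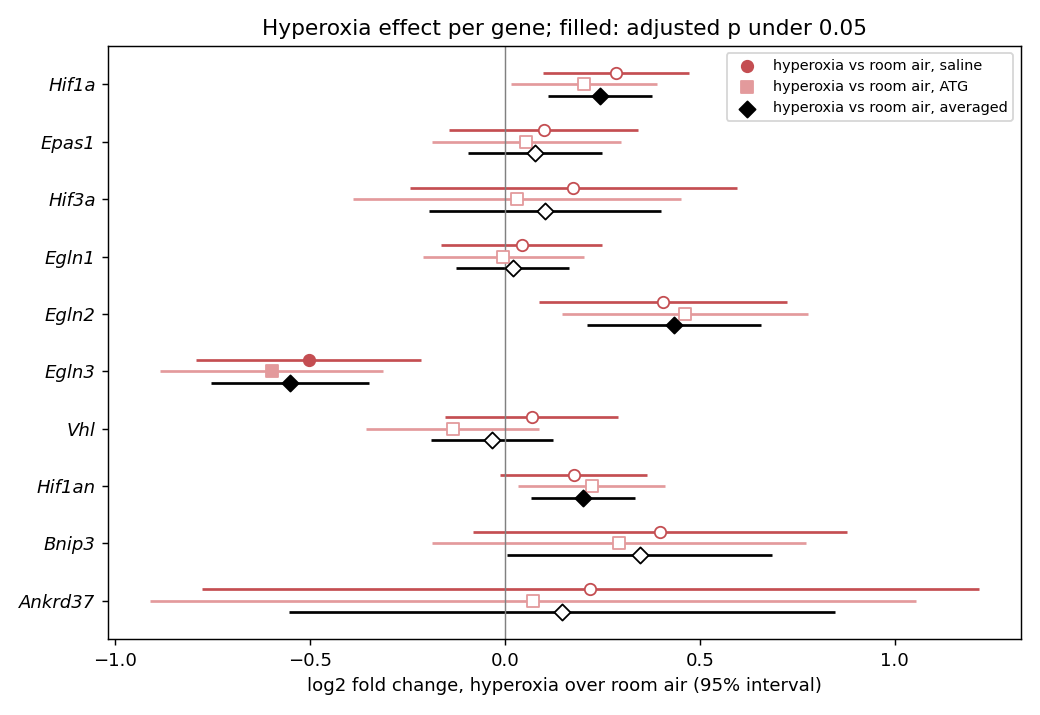
Log2 fold change of hyperoxia over room air for the 10 genes (x axis, 95% interval) after saline, after aurothioglucose and averaged over both. Filled symbols passed an adjusted p of 0.05 in edgeR QL. Egln3 is filled in all 3 comparisons, at -0.50, -0.60 and -0.55, and Hif1a, Egln2 and Hif1an are filled only in the average.

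Whether the 3 libraries of a group all lay above or below the 3 of another was also counted. After saline, Hif1a, Egln2 and Hif1an lay wholly higher in hyperoxia and Egln3 wholly lower, 3 and 1 of the 10 genes, where 14.6% and 14.9% of all tested genes did. After aurothioglucose the same 3 genes lay wholly higher, and Egln3 and Vhl wholly lower, beside 13.7% and 13.9% of all tested genes. For the drug in room air, Vhl alone lay wholly higher and none lower (6.29% and 5.70% of all tested genes). For the drug in hyperoxia none of the 10 did so in either direction (5.55% and 5.54%).

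DNA upstream of 3 of the 4 genes that passed is shown because HIF binds the core ACGTG or GCGTG. A further reason is that no annotated exon lies in these windows of 250 bases. The fourth, Hif1an, held neither form in its window. Only the ACGTG form is marked. Sequences are from RefSeq (GRCm38.p6), 5′ to 3′ on the gene's strand, ending at the base before the annotated start, with each ACGTG on either strand in capitals. Egln3 is chr12:54203875-54204124 on the minus strand, Egln2 is chr7:27166803-27167052 on the minus strand, and Hif1a is chr12:73907617-73907866 on the plus strand, which lies inside the annotated span of the gene.
Egln3: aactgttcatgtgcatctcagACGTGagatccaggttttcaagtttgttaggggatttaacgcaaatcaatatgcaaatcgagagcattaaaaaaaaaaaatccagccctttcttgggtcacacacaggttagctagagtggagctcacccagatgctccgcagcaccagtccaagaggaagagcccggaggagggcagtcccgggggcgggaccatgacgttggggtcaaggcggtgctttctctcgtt
Egln2: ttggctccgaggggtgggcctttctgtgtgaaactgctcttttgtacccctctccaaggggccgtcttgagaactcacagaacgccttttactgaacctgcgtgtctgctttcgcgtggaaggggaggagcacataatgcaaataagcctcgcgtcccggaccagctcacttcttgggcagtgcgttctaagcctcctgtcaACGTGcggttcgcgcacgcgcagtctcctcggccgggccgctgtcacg
Hif1a: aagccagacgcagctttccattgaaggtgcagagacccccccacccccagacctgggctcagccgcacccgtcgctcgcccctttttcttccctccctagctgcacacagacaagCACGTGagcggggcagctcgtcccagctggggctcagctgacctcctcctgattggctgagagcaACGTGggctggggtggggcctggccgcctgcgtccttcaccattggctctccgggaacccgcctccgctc
The Egln3 match begins at base -229 from the start and the Egln2 match at -48, while a second annotated start of Egln2 held no ACGTG. In Hif1a the capitals mark CACGTG, which reads as ACGTG on both strands (-135 and -134), and a further ACGTG at -70. Of the 9 genes with an entry in the promoter table, 6 held ACGTG in a window: these 3, Egln1 (-68), Bnip3 (-108 and -107) and Ankrd37 (-241 and -6). Over all 32851 windows of the same length 16.6% held ACGTG and 38.6% held ACGTG or GCGTG, on either strand. These shares count windows, while 6 of 9 counts genes. GC content, from 48% to 86% in the windows of these genes, was not matched. With both forms counted, Egln3 held 1 match, Hif1a 3, and Egln2 4 and 1 at its 2 starts. Egln1 and Hif3a held 2 each, Ankrd37 4, Bnip3 5, and Vhl and Hif1an 0. A match of these letters is a description and not a bound site, and Egln3, which fell, held one as did Egln2 and Hif1a, which rose.

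Hif1a (chr12:73901324-73947554), which encodes the broadly expressed oxygen-labile α subunit, was higher in hyperoxia. Its level in CPM was 180, 165 and 185 in SAL/RA, 202, 180 and 206 in ATG/RA, 192, 217 and 237 in SAL/HYP, and 225, 220 and 231 in ATG/HYP. Within each injection every hyperoxia library lay above every room air library, and the lowest was SAL/RA 2. Averaged over both injections Hif1a rose by 0.24 (SE 0.06, adjusted p = 0.0107, edgeR QL), a fold of 1.18. After saline alone the difference was 0.28 (SE 0.09, adjusted p = 0.0572, edgeR QL) and after aurothioglucose 0.20 (SE 0.09, adjusted p = 0.158, edgeR QL), neither past the threshold. The averaged call held in all 20 alternatives, with differences from 0.21 to 0.34. After saline alone Hif1a passed in 6 of 21 alternatives. These were without ATG/RA 2 (0.30), SAL/HYP 1 (0.37) or ATG/HYP 2 (0.29), without the 3 muscle-rich libraries (0.44), with DESeq2 (0.29) and with the replicate number as a block (0.28). ATG/RA 2 and ATG/HYP 2 are outside that contrast and enter it only through the shared spread, the scaling and the filter. In the other 15 Hif1a did not pass, with adjusted p up to 0.210. After aurothioglucose Hif1a passed in none of 21, with adjusted p from 0.0958 to 0.282 (edgeR QL and the other tools). In GENCODE M21 5.60% of its exon bases are shared with an antisense gene, Gm15283, and 2.51% with Gm49321, and whether strand was used in counting is not given in the sources used here.

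**Figure D2:**
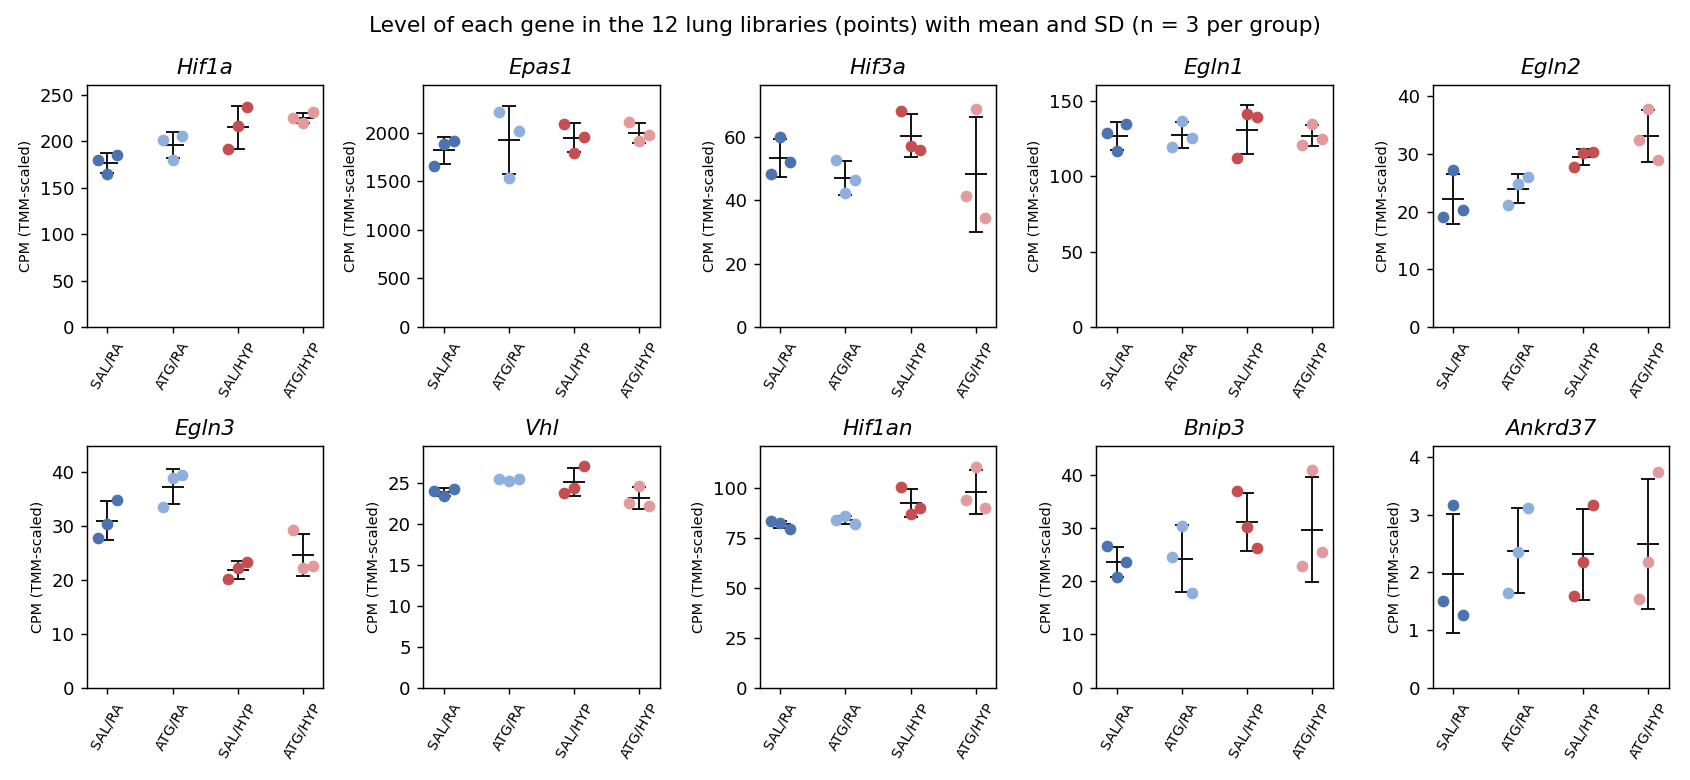
Level of each of the 10 genes in CPM (y axis, from 0) in the 12 libraries, by group, with the mean and SD of 3 libraries. Hif1a, Egln2 and Hif1an sit higher and Egln3 lower in the hyperoxia groups, and Hif3a and Bnip3 spread most within ATG/HYP.

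Epas1 (chr17:86753864-86833410) was by far the most abundant of the 10 per length of transcript and gave no difference past the threshold. Its CPM was 1662, 1883 and 1911 in SAL/RA and 2215, 1538 and 2017 in ATG/RA. In hyperoxia it was 2093, 1794 and 1959 in SAL/HYP and 2110, 1914 and 1972 in ATG/HYP. Both the highest and the lowest library were in ATG/RA, so the spread within that group (SD 348) exceeded the distance between any group means. The averaged hyperoxia difference was 0.08 (SE 0.08, 95% interval -0.09 to 0.25, adjusted p = 0.540, edgeR QL). Beside it, the summed CPM of 10 endothelial markers was 3956 to 4464 in room air and 3188 to 3659 in hyperoxia, with 2 of the 10 passing as higher and 2 as lower in the average and none at 0 in any library. For 9 alveolar type 2 markers the sums overlapped with both injections pooled, at 12974 to 17172 in room air and 14251 to 16999 in hyperoxia. After saline they did not overlap, at 12974 to 13846 in SAL/RA and 14251 to 15684 in SAL/HYP. In ATG/RA they were 14978.5 to 17172 and in ATG/HYP 14706 to 16999. Of these 9, 1 passed as higher and 2 as lower in the average, 4 and 1 after saline, and 0 and 2 after aurothioglucose. The part of either cell type in the Epas1 level was not tested. In RNA from whole lung, fewer cells of a type and less RNA per cell cannot be told apart.

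Hif3a (chr7:17030993-17062427) encodes an α subunit whose short splice forms are known to oppose the other HIFs, and its level depended on single libraries. CPM was 48.2, 60.1 and 52.1 in SAL/RA, 52.9, 42.2 and 46.3 in ATG/RA, and 68.2, 57.1 and 55.9 in SAL/HYP. In ATG/HYP the values were 41.4, 68.9 and 34.3, so this group held both the highest and the lowest library of the series. The 2 highest libraries were ATG/HYP 2, the richest in cardiomyocyte markers, and SAL/HYP 1, the richest in skeletal muscle markers. The hyperoxia difference was 0.18 (SE 0.20) after saline and 0.03 (SE 0.20) after aurothioglucose, and 0.10 averaged (SE 0.14, adjusted p = 0.646, edgeR QL). After aurothioglucose the sign was not settled: the value was -0.30 without ATG/HYP 2, -0.03 without ATG/RA 2, and -0.0375, -0.00395 and -0.00876 with limma-voom, the replicate number as a block and sex as a covariate. The averaged value was -0.06 without ATG/HYP 2. The part of muscle RNA in the Hif3a level was not tested.

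**Figure D3:**
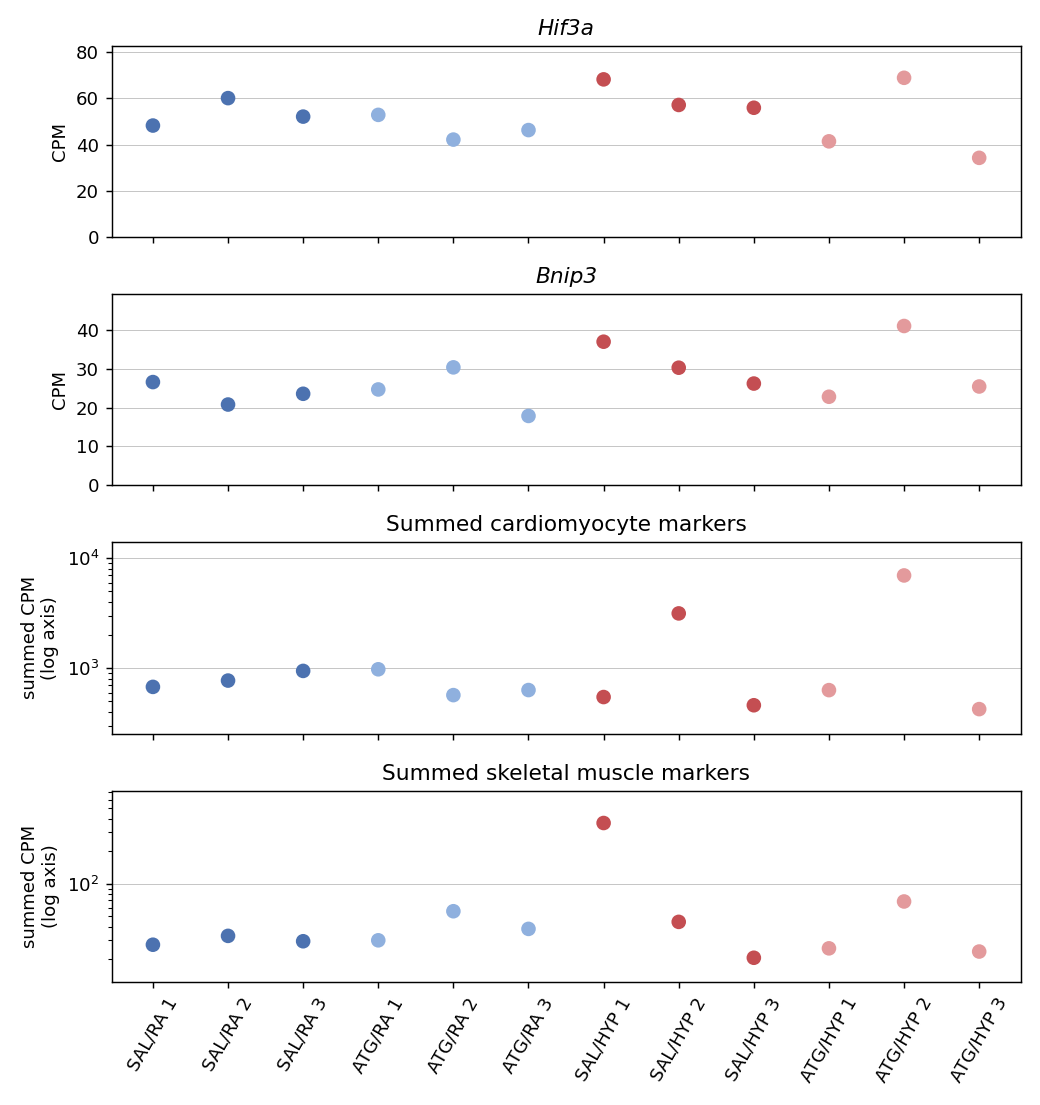
Hif3a and Bnip3 (CPM, axes from 0) above the summed CPM of 8 cardiomyocyte and 7 skeletal muscle markers (log axes) in the same 12 libraries. ATG/HYP 2 (cardiomyocyte sum 6967) and SAL/HYP 1 (skeletal muscle sum 364) have the highest Hif3a and Bnip3, while SAL/HYP 2 (cardiomyocyte sum 3148) does not stand apart in either gene.

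The 3 prolyl hydroxylases went different ways. Egln3 (chr12:54178981-54203874), which encodes PHD3 and is a classical HIF target, fell in hyperoxia. Its CPM was 27.8, 30.4 and 34.8 in SAL/RA and 33.5, 38.9 and 39.3 in ATG/RA. In hyperoxia it was 20.1, 22.2 and 23.4 in SAL/HYP and 29.2, 22.3 and 22.5 in ATG/HYP. Within each injection every hyperoxia library was below every room air library, and ATG/HYP 1 was the only hyperoxia library that reached the range of SAL/RA. Egln3 fell by 0.50 after saline (SE 0.13, adjusted p = 0.0307, edgeR QL), to a fold of 0.706. After aurothioglucose it fell by 0.60 (SE 0.13, adjusted p = 0.00908, edgeR QL), to a fold of 0.661. Averaged, it fell by 0.55 (SE 0.10, adjusted p = 0.000749, edgeR QL), the smallest adjusted p of the 10 genes. The averaged call and the call after aurothioglucose held in all alternatives tried, 20 and 21.

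After saline alone the Egln3 call was less firm. Egln3 was at -0.57 to -0.39 over the 21 alternatives, always negative, with adjusted p from 0.0107 to 0.306 (edgeR QL and the other tools). The call ended without SAL/RA 2 (-0.51), SAL/RA 3 (-0.41), SAL/HYP 1 (-0.44), SAL/HYP 2 (-0.50) or SAL/HYP 3 (-0.55), without the 2 libraries rich in the atrial transcript Nppa (-0.50), without the 3 rich in heart or skeletal muscle markers (-0.39), and with sex as a covariate (-0.41). Summed endothelial, macrophage, mural cell and fibroblast markers had a lower median in hyperoxia too, while those of type 1 and type 2 cells had a higher one. The summed CPM of 6 macrophage markers was 2706 to 3456 in room air and 1573 to 2323 in hyperoxia. Of these 6, 1 passed as higher and 1 as lower in the average, and their median log2 difference was -0.00259. For 10 endothelial markers the sums were 3956 to 4464 and 3188 to 3659, with 2 of 10 higher and 2 lower. For 6 mural markers the sums were 1535 to 1798 and 1203 to 1360, with 3 of 6 lower and none higher. For 7 fibroblast markers they were 9137 to 11232 and 7399 to 9267, with 3 of 7 lower and none higher. No gene of these lists was at 0 in any library, and their part in the Egln3 result was not tested.

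Egln2 (chr7:27158658-27166802), which encodes PHD1, rose in hyperoxia. Its CPM was 19.0, 27.2 and 20.3 in SAL/RA, 21.1, 24.9 and 26.0 in ATG/RA, 27.8, 30.2 and 30.3 in SAL/HYP, and 32.5, 37.9 and 29.0 in ATG/HYP. All 6 hyperoxia libraries lay above all 6 room air libraries, with SAL/RA 2 and SAL/HYP 1 closest to each other. The averaged difference was 0.43 (SE 0.10, adjusted p = 0.00792, edgeR QL), a fold of 1.35. Alone, the differences were 0.41 after saline (SE 0.15, adjusted p = 0.109, edgeR QL) and 0.46 after aurothioglucose (SE 0.15, adjusted p = 0.0567, edgeR QL). The averaged call held in all 20 alternatives, from 0.38 to 0.53. After saline Egln2 passed in 1 of 21 alternatives, without SAL/RA 2 (0.59). After aurothioglucose it passed in 5 of 21, without SAL/RA 1 (0.48), SAL/RA 2 (0.48) or ATG/HYP 3 (0.56), with DESeq2 (0.47) and with the replicate number as a block (0.46). SAL/RA 1 and SAL/RA 2 are outside that contrast and enter it only through the shared spread, the scaling and the filter. In the other 20 and 16 alternatives Egln2 did not pass, with adjusted p up to 0.303 and 0.198 (edgeR QL and the other tools). Its exons share 11 bases with Cyp2t4 on the other strand, a gene with at most 33 counts in a library.

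Egln1 (chr8:124908587-124949254), which encodes PHD2, the main oxygen sensor for HIF-1α, gave no difference past the threshold. Its CPM was 129, 117 and 135 in SAL/RA and 120, 137 and 126 in ATG/RA. In hyperoxia it was 112, 141 and 139 in SAL/HYP and 121, 135 and 125 in ATG/HYP. All 4 groups overlapped, and the averaged hyperoxia difference was 0.02 (SE 0.07, 95% interval -0.13 to 0.17, adjusted p = 0.871, edgeR QL). Over the 12 libraries its coefficient of variation was 7.35%, against 23.7% for Egln3 and 19.9% for Egln2.

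Since Egln2 and Egln3 moved in opposite directions, their counts were set against each other within each library, a ratio that no scaling between libraries can alter. The pair was picked after its values were seen, so the ratio is a description. Egln2 counts per Egln3 count were 0.685, 0.896 and 0.585 in SAL/RA (mean 0.722 ± 0.159 SD, n = 3) and 0.629, 0.639 and 0.662 in ATG/RA (0.644 ± 0.0168). In hyperoxia they were 1.39, 1.36 and 1.30 in SAL/HYP (1.35 ± 0.0463) and 1.11, 1.70 and 1.29 in ATG/HYP (1.37 ± 0.303). Egln3 therefore had the larger count in every room air library and Egln2 in every hyperoxia library. The ratio of Egln1 to Egln3 counts was 4.13 ± 0.454 in SAL/RA and 3.42 ± 0.204 in ATG/RA, against 5.97 ± 0.385 in SAL/HYP and 5.26 ± 0.989 in ATG/HYP (SD, n = 3).

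**Figure D4:**
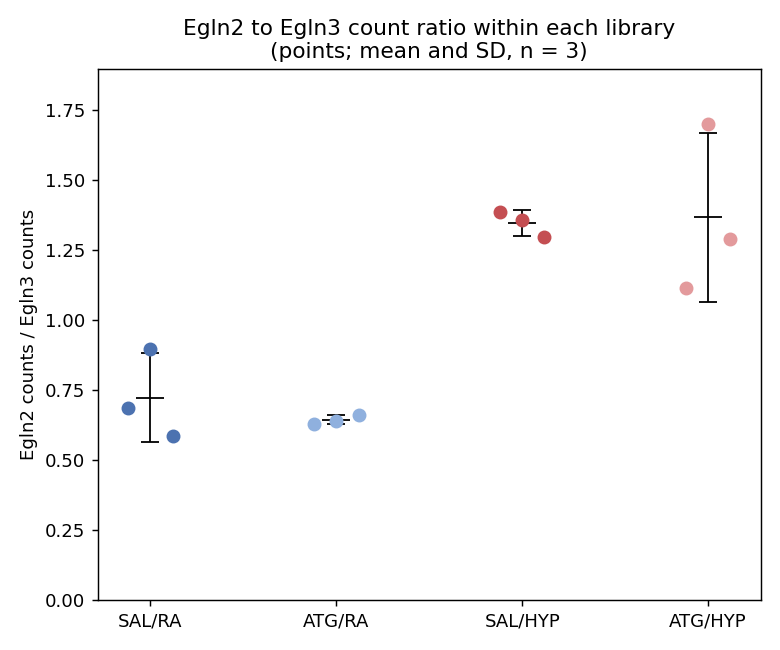
Egln2 counts divided by Egln3 counts within each library (y axis, from 0), by group, with mean and SD of 3 libraries. The 6 room air libraries lie at 0.896 or below and the 6 hyperoxia libraries at 1.11 or above.

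Vhl (chr6:113623994-113631634), the substrate-recognition subunit of the ligase that marks hydroxylated α subunits for destruction, varied least of the 10 genes, with a coefficient of variation of 5.53% over the 12 libraries. Its CPM was 24.1, 23.4 and 24.4 in SAL/RA and 25.5, 25.2 and 25.5 in ATG/RA. In hyperoxia it was 23.9, 24.4 and 27.1 in SAL/HYP and 22.6, 24.7 and 22.2 in ATG/HYP. ATG/RA lay above SAL/RA and above ATG/HYP without overlap, by margins that are small beside the spread in the hyperoxia groups. The hyperoxia difference was 0.07 after saline (SE 0.10) and -0.13 after aurothioglucose (SE 0.10), and -0.03 averaged (95% interval -0.19 to 0.13, adjusted p = 0.800, edgeR QL).

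Hif1an (chr19:44562854-44576274) encodes FIH, which hydroxylates an asparagine of the α subunits and so blocks their contact with the coactivators EP300 and CREBBP. Its CPM was 83.3, 82.4 and 79.7 in SAL/RA, 83.9, 85.9 and 82.2 in ATG/RA, 100.4, 87.0 and 89.9 in SAL/HYP, and 93.9, 110.7 and 89.9 in ATG/HYP. All 6 hyperoxia libraries exceeded all 6 room air libraries, and the 2 highest were again ATG/HYP 2 and SAL/HYP 1. The averaged rise was 0.20 (SE 0.06, adjusted p = 0.0315, edgeR QL), a fold of 1.15. The differences of 0.18 after saline (adjusted p = 0.253) and 0.22 after aurothioglucose (adjusted p = 0.123, both edgeR QL) did not pass. The averaged call ended without SAL/RA 3 (0.20), ATG/RA 3 (0.20), SAL/HYP 1 (0.18) or ATG/HYP 2 (0.16), and without the 3 muscle-rich libraries (0.15), with adjusted p from 0.0168 to 0.170 over its 20 alternatives.

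Of the targets, Bnip3 (chr7:138890836-138909506), which encodes a mitochondrial receptor for mitophagy, had a higher mean in hyperoxia that did not pass. Its CPM was 26.5, 20.8 and 23.5 in SAL/RA and 24.7, 30.3 and 17.8 in ATG/RA. In hyperoxia it was 36.9, 30.2 and 26.2 in SAL/HYP and 22.8, 41.0 and 25.4 in ATG/HYP. Both contrasts overlapped, and as for Hif3a the highest libraries were ATG/HYP 2 and SAL/HYP 1. The averaged difference was 0.35 (SE 0.16, adjusted p = 0.137, edgeR QL), and 0.09 without the 3 muscle-rich libraries, whose part in it was not tested. A share of 22.3% of its exon bases is covered by the antisense gene Gm45507, so its counts are uncertain.

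Ankrd37 (chr8:45996908-46000414), an ankyrin repeat gene known as a HIF-1 target, was the least abundant member, with 20 to 76 counts per library. Its CPM was 1.51, 3.16 and 1.26 in SAL/RA, 1.64, 2.35 and 3.11 in ATG/RA, 1.59, 2.17 and 3.16 in SAL/HYP, and 1.54, 2.19 and 3.74 in ATG/HYP. The 4 groups overlapped. The averaged hyperoxia difference was 0.15 with a 95% interval of -0.55 to 0.85 (adjusted p = 0.794, edgeR QL). It shares 22.7% of its exon bases with Lrp2bp and 3.70% with Ufsp2, both on the other strand, so its counts are uncertain too.

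No difference between aurothioglucose and saline passed the threshold for any of the 10 genes. Against saline, 0 of 10 passed in room air, in hyperoxia or averaged, and 0 of 10 in the interaction of drug and oxygen, by edgeR QL, DESeq2 and limma-voom alike. Over all tested genes the shares that passed in edgeR QL were 0%, 0.00634%, 0.0444% and 0%. At an unadjusted p under 0.05, the counts among the 10 were 0, 0, 1 and 0, beside 949, 897, 1335 and 465 of 15761 tested genes. The 1 member was Egln3, higher by 0.22 in the average (SE 0.09, 95% interval 0.02 to 0.42, adjusted p = 0.558, edgeR QL). Hif3a had the lowest value, -0.26 (SE 0.14, adjusted p = 0.652, edgeR QL). For Hif3a this was -0.43 without ATG/HYP 2, -0.45 without the 2 Nppa-rich libraries and -0.16 without ATG/HYP 3, with adjusted p from 0.144 to 0.821 over its 20 alternatives. In hyperoxia alone the Hif3a drug difference was -0.33 (SE 0.20, adjusted p = 0.916, edgeR QL), and it was -0.67 without ATG/HYP 2, -0.71 without the 2 Nppa-rich libraries, -0.57 without the 3 muscle-rich libraries and -0.13 without ATG/HYP 3. For Hif1a the averaged drug difference was 0.11 (95% interval -0.02 to 0.24) and for Epas1 0.06 (95% interval -0.11 to 0.23). The interaction for Egln3, the hyperoxia effect after aurothioglucose minus that after saline, was -0.10 (SE 0.19, adjusted p = 1.00, edgeR QL), so its falls after the 2 injections were not shown to differ. These contrasts share room air or hyperoxia libraries with the oxygen contrasts above.

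Levels between genes were compared as CPM per kilobase of exon in GENCODE M21, as the mean over the 12 libraries. Epas1 led at 344, followed by Egln1 at 35.6 and Hif1a at 34.5, whose ranges over libraries (31.2 to 39.3 and 28.0 to 40.2) overlapped. Hif1an stood at 13.5, Bnip3 between 7.88 and 18.1, Egln3 at 10.8, Egln2 at 9.71, Vhl at 8.15 and Hif3a at 7.79, each overlapping the next in this order, and Ankrd37 at 1.49 lay below the others in every library. Egln1 was thus the most abundant hydroxylase RNA per length, and the order of Egln2 and Egln3 changed with oxygen: 7.93 and 11.6 in SAL/RA, but 10.5 and 8.22 in SAL/HYP.

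Genes whose level followed a member most closely were sought among 11505 genes over the 12 libraries by Pearson's r of log2 CPM, as a description only, since the points share groups and libraries. Hif1a was followed by Cltc, the clathrin heavy chain (r = 0.950), and Disp2 (r = 0.945). Epas1 was followed by Gp1ba (r = 0.901) and Chd1 (r = 0.878), Hif3a by Med12 (r = 0.887) and Tle1 (r = 0.883). Egln3 was followed by Acly, which makes cytosolic acetyl-CoA (r = 0.926), and the translation termination factor Gspt1 (r = 0.921). Like Egln3, Acly and Gspt1 had their lowest library in SAL/HYP 1 and their highest in ATG/RA 3.

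The rest of the pathway was read from lists of partners and of targets. These lists were written with earlier results of these data known, so their counts beside the background are a description. Of 16 partners and other oxygen sensors, 0 passed in hyperoxia after saline or after aurothioglucose, and 1 passed in the average, Ep300, the coactivator that FIH keeps from HIF (0.19, adjusted p = 0.0273, edgeR QL). Of 34 further HIF targets, 14 were higher and 2 lower in the average, with 18 not passing, where 11.0% of all tested genes passed as higher and 11.3% as lower. Their median difference was 0.20 against a median of 0.00 over all tested genes. After saline 8 were higher and 1 lower (median 0.17), beside 4.70% and 4.50% of all tested genes. After aurothioglucose 7 were higher and 2 lower (median 0.21), beside 5.41% and 6.25%. Alveolar type 1 markers were higher as well: 4 of 6 passed as higher and 0 as lower in the average, with summed CPM of 1538 to 2037 in room air and 1872 to 2372 in hyperoxia and none at 0. Their part in the levels of the HIF targets, and of Hif1a, Egln2 and Hif1an, was not tested. The targets with the smallest adjusted p in the average were the glucose transporter Slc2a1 (0.68, adjusted p = 9.73e-06), the collagen prolyl hydroxylase P4ha1 (0.59, adjusted p = 3.38e-05) and the clock repressor Bhlhe40 (0.80, adjusted p = 3.75e-05, all edgeR QL). The glycolytic enzyme Aldoa was among the leading 4 after saline (0.80, adjusted p = 0.00243, edgeR QL). Many of these targets also answer to signals other than HIF.

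The 2 targets that fell in the average, named after their values were seen, were Bnip3l (-0.46, adjusted p = 0.00538), the paralog of Bnip3, and the lysyl oxidase-like enzyme Loxl2 (-0.45, adjusted p = 0.000517, both edgeR QL). Thus Egln3 and Bnip3l were lower in hyperoxia while Slc2a1, P4ha1 and Aldoa were higher. Without the 2 libraries rich in Nppa 12 of the 34 were higher and 2 lower in the average. There 3199 of 15911 tested genes passed in either direction, against 3526 of 15761 with all 12 libraries. The fit without the 3 muscle-rich libraries kept only SAL/HYP 3 in its group, so its counts for the lists are not given. For the drug, 0 of the 16 and 0 of the 34 passed in room air, in hyperoxia or averaged, with list medians from 0.01 to 0.12.

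**Figure D5:**
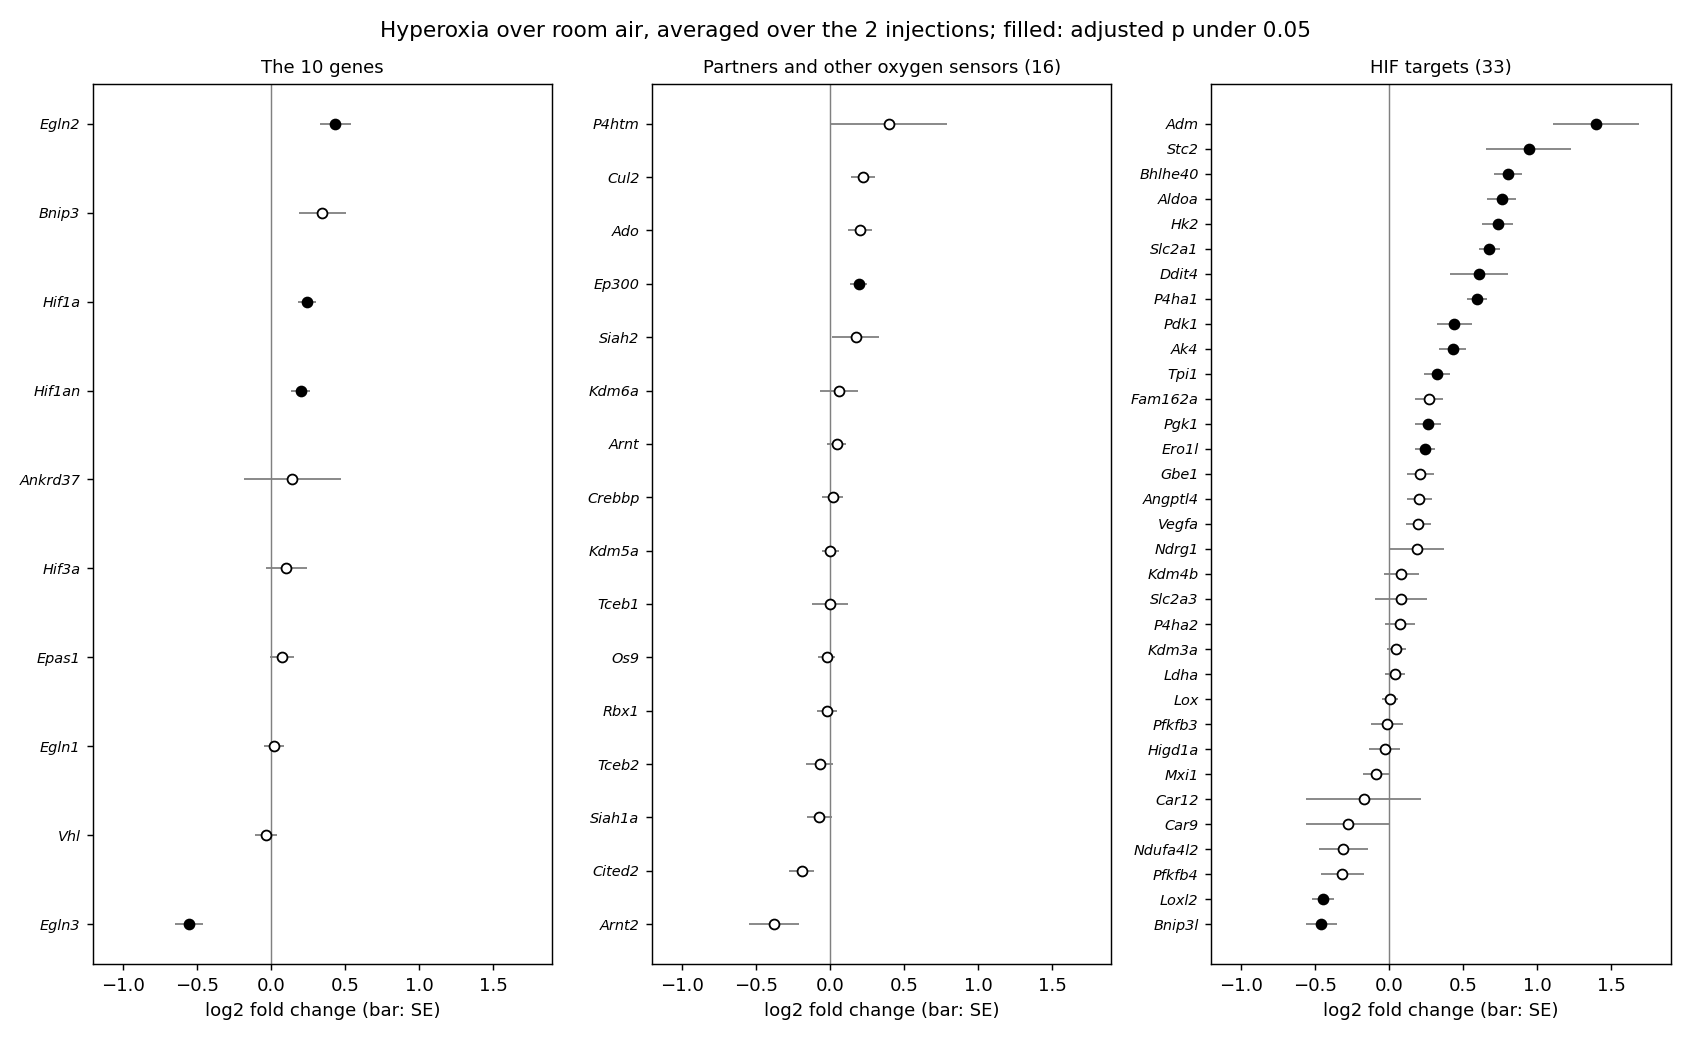
Averaged hyperoxia difference (log2 fold change, x axis, bar: SE) for the 10 genes, the 16 partners and 33 of the 34 further HIF targets, with filled points past an adjusted p of 0.05 in edgeR QL. Among the targets shown 13 filled points lie to the right of 0 and 2 to the left, and among the 10 genes 3 lie to the right and 1, Egln3, to the left.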

How the data were processed

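Lung RNA was amplified (Ovation RNA-Seq System V2), made into Nextera XT libraries and sequenced as paired reads of 75 bases on an Illumina HiSeq, per the labels' protocols. What the authors deposited is 1 table of raw counts by gene symbol, with 1 column per library and no scaling. Per the submitters' processing notes, Bowtie2, Cufflinks, DESeq and mm10 were used, with neither versions nor roles. How reads were counted, by which annotation and with what regard for strand, is not given in the sources used here.

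Columns were matched to samples by name. Genes were filtered with filterByExpr (minimum count 10, minimum total 15), TMM-scaled and fitted by glmQLFit and glmQLFTest in edgeR 4.0.16 (R 4.3.3) as 4 group means over 12 libraries, with 7 two-sided contrasts and Benjamini-Hochberg adjustment over 15761 genes. No replicate pair agreed within sampling noise. CPM uses TMM-scaled library sizes, and log2 CPM a prior count of 2. Intervals are at 95%. Exon lengths and overlaps came from GENCODE M21, and positions and promoters from RefSeq GRCm38.p6, the assembly that mm10 names. The fit was tested on simulated data. Alternatives were DESeq2 1.42.0, limma-voom (limma 3.58.1), RLE size factors, no low-count filter, a replicate block, sex as a covariate, only the groups compared, each library left out, and the muscle-rich libraries left out.

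The 10 genes were all named. From each pathway list the up to 4 genes with the smallest adjusted p under 0.05 in each contrast were named, except 1 gene that is not reported here, and for Hif1a, Epas1, Hif3a and Egln3 the 2 genes of at least 5 mean CPM with the highest r, leaving out predicted gene models. The genes and lists were chosen with earlier results of these data known.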

Additional observations from a re-analysis of the deposited data

How the results depend on the processing

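The number of the 10 genes past the threshold for hyperoxia after saline was 1, and it was 2 with DESeq2 and with the replicate block (Hif1a and Egln3), 0 with sex as a covariate, 0 without the 2 Nppa-rich libraries, and 0 to 2 with each library left out. It was 0 without SAL/RA 3, SAL/HYP 2 or SAL/HYP 3, and 2 without ATG/RA 2 or ATG/HYP 2. The calls over all tested genes moved too, from 1449 to 1936 with DESeq2, 1356 with the replicate block and 1295 with sex as a covariate. They were 1536 without the 2 Nppa-rich libraries, 740 without SAL/RA 3, 1168 without SAL/HYP 2 and 760 without SAL/HYP 3. Without ATG/RA 2 they were 1634, and without ATG/HYP 2 1704. The genes tested in these fits numbered 15761 to 16065. After aurothioglucose the number of the 10 genes was 1, and 2 with DESeq2 and with the replicate block (Egln2 and Egln3). It was 1 to 2 with each library left out, with 2 without SAL/RA 1, SAL/RA 2 or ATG/HYP 3. Over all tested genes the calls were 1838, 2346 with DESeq2, 1763 with the block, and 1658, 1627 and 1637 without those libraries in turn. In the average the number of the 10 genes stayed at 3 or 4. Over all tested genes the averaged calls were 3526, against 2917 without SAL/RA 3 and 3915 with DESeq2. The drug and interaction counts were 0 under every alternative. A library outside a contrast enters it only through the shared spread, the scaling and the filter. Over all tested genes, drug calls in the average numbered 7 in edgeR and 86 in DESeq2, 0 and 14 in room air, and 1 and 11 in hyperoxia.

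Replicate numbers did not pair the samples: deviations of same-numbered samples correlated at -0.156 to 0.28 over 18 pairs, and 5 of 12 samples correlated best with their own number. The replicate block gave 1356 calls in place of 1449 after saline and 1763 in place of 1838 after aurothioglucose.

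Differences that changed sign were all uncalled, and the cause was not tested. For Hif3a after aurothioglucose the value was -0.0375 with limma-voom, -0.00395 with the replicate block, -0.00876 with sex as a covariate, -0.30 without the 2 Nppa-rich and -0.29 without the 3 muscle-rich libraries, and -0.30 to 0.24 with each library left out. Averaged, Hif3a was -0.0374 and -0.11 without those libraries and -0.0591 to 0.21 with each left out. For Egln1 it was -0.00246 after saline and -0.0180 averaged without the Nppa-rich libraries, 0.00306 (DESeq2), 0.00305 (RLE) and 0.00582 (only the 2 groups) after aurothioglucose, and -0.00564 to 0.15 after saline and -0.0336 to 0.0653 after aurothioglucose with each library left out. Vhl averaged was 0.0196 and Hif1a for the drug in hyperoxia -0.0566 without the muscle-rich libraries. With each library left out, Epas1 after aurothioglucose ran from -0.0675 to 0.19, Ankrd37 from -0.0723 to 0.75 after saline, -0.33 to 0.34 after aurothioglucose and -0.0535 to 0.42 averaged, and Hif1a for the drug in hyperoxia from -0.00447 to 0.15.

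Alternatives that leave out these libraries were added for the lists after seeing the data. Without the Nppa-rich libraries, partners past the threshold in the average numbered 2 as higher and 1 as lower. There 3199 of 15911 tested genes passed in either direction. HIF targets lower numbered 2 after saline and 1 after aurothioglucose, where 1536 and 1447 of the 15911 passed in either direction.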
